A study of Sus scrofa with 13 samples.

Results

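The genes described here are a selection from the 2-oxoglutarate oxygenase family of the pig. The HIF prolyl hydroxylases, the TET enzymes and the collagen lysyl and prolyl 4-hydroxylases are not among them. The selection was made by gene symbol from a list of 45 JmjC histone demethylases, nucleic acid demethylases, metabolite hydroxylases and protein hydroxylases. Of these, 44 were found among the 27339 gene rows of the count tables, and KDM4D was not analysed here. The readout was 5-hydroxymethylcytosine (5hmC), the oxidation product of 5-methylcytosine in DNA, captured with an antibody from fragmented genomic DNA and counted per gene. The values are therefore 5hmC reads at each gene and say nothing of how much of its RNA or enzyme the cells held. All cells were mesenchymal stem cells expanded from the abdominal fat of female domestic pigs that had been fed a high-cholesterol diet and given a narrowed renal artery, with the fat taken 3 weeks after the narrowing. In the hypoxia group, 6 libraries, the cells had spent 48 hours at 1% oxygen, and in the normoxia group, also 6 libraries, oxygen was at 20%. The sample titles begin with 1 of the numbers 110, 16, 21, 33, 49 and 4, which occur once in each group, and the labels do not say what the numbers mean. Neither group includes cells of a healthy pig.

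2-oxoglutarate oxygenases join molecular oxygen to 2-oxoglutarate at a ferrous iron, and use the reaction to hydroxylate or demethylate a substrate, releasing succinate and carbon dioxide. Because oxygen is a substrate, cells in hypoxia can run some of them more slowly, and the genes of several JmjC demethylases, KDM3A among them, are known targets of the hypoxia-inducible factors in human and mouse cells. The TET enzymes, which make 5hmC, belong to the same superfamily. The roles given below are those described for the human and mouse proteins.

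Libraries held 15569948 to 27428482 reads, of which 1.69 to 2.89% were counted to gene rows, that is 263578 to 714002 gene reads. Another 88.0 to 93.0% lay outside any counted feature. Which parts of a gene were counted is not given, so the values need not cover whole gene spans. The shallowest was the normoxia library numbered 21. It also had the lowest share of reads in gene rows, 1.69%. Its share of reads with low alignment quality was the highest, 10.3%, and the next was 7.23% in the hypoxia library numbered 16. Levels are given as CPM, the reads at a gene scaled to the library's total over the tested genes times its TMM scaling factor. Those factors ran from 0.8885, in the normoxia library numbered 21, to 1.06. CPM values are compared between libraries but not between genes, since the counted length of each gene was not at hand. Of the 44 genes, 34 had enough reads to be tested, among 11868 genes in all. Single-library CPM values rest on few reads: the 34 held 112 to 5545 reads over all 12 libraries, with JARID2 the deepest and HSPBAP1 the shallowest. The labelled cell type could not be checked through RNA markers, because these are DNA reads. Over 6 stromal marker genes the summed 5hmC level was 590 to 875 CPM in hypoxia and 560 to 1168 CPM in normoxia. For 4 endothelial genes it was 337 to 497 CPM in hypoxia and 263 to 410 CPM in normoxia, and for 3 adipocyte genes 193 to 403 CPM in hypoxia and 105 to 252 CPM in normoxia. For 4 leukocyte genes it was 176 to 264 CPM in hypoxia and 142 to 357 CPM in normoxia, for 3 epithelial genes 76.1 to 139 CPM in hypoxia and 66.2 to 130 CPM in normoxia, and for 3 smooth muscle genes 76.1 to 174 CPM in hypoxia and 77.1 to 268 CPM in normoxia. Between hypoxia and normoxia, none of the 16 marker genes tested differed at an edgeR adjusted p under 0.05. Between title numbers 3 of them did, and their values stand with that comparison. The part of cell makeup in the results below was not tested.

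The first comparison asked whether 5hmC at these genes differed between hypoxia and normoxia. None of the 34 tested genes passed an adjusted p of 0.05 in edgeR's quasi-likelihood test, where 0% of all 11868 genes did. With the title number as a block, 4 genes (0.0337%) passed, and again none of the 34. DESeq2 called 0 genes of any kind. The 34 genes split into 15 with a log2 fold change (hypoxia over normoxia) above 0 and 19 below it, and their median was -0.03. Of all tested genes 56.6% lay below 0, with a median of -0.04. The split depended on scaling: with gene reads as the only scaling, 15 of the 34 and 48.8% of all genes lay below 0. Summed over all 44 genes, tested or not, the level was 3544 ± 258 CPM in hypoxia and 3697 ± 242 CPM in normoxia (SD, n = 6 each). JARID2 alone made up 1046 CPM of the mean in hypoxia and 1106 CPM in normoxia. The same sum over all 27339 genes was also lower in hypoxia, at 1108300 ± 21141 CPM, against 1155000 ± 65456 CPM in normoxia. In all 44 genes the hypoxia and normoxia libraries overlapped, and 0.101% of all tested genes had groups that did not overlap.

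PHYH alone of the 34 reached an unadjusted p under 0.05, without the block (2.73% of all genes) and with it (7.09% of all genes). It was lower in hypoxia, as were 1.81% of all genes at that p without the block and 4.49% with it, while 0 of the 34 were higher, against 0.918% and 2.6% of all genes. A count of 1 in 34 is near the 2.73% of all genes without the block and below the 7.09% with it. DESeq2 without a count filter put 3 of the 44 genes under that p (PHYH, RIOX1 and ALKBH7), against 2.02% of all genes. The 95% interval of the log2 fold change lay between -1 and 1, that is within a 2-fold change either way, for 27 of the 34 genes and for 77.8% of all genes. The median standard error was 0.29 for the 34 and 0.29 for all genes, so differences of about that size were not detectable at this depth. Larger ones were not always called either: PHYH had a log2 fold change of -1.17 and did not pass.

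**Figure D1:**
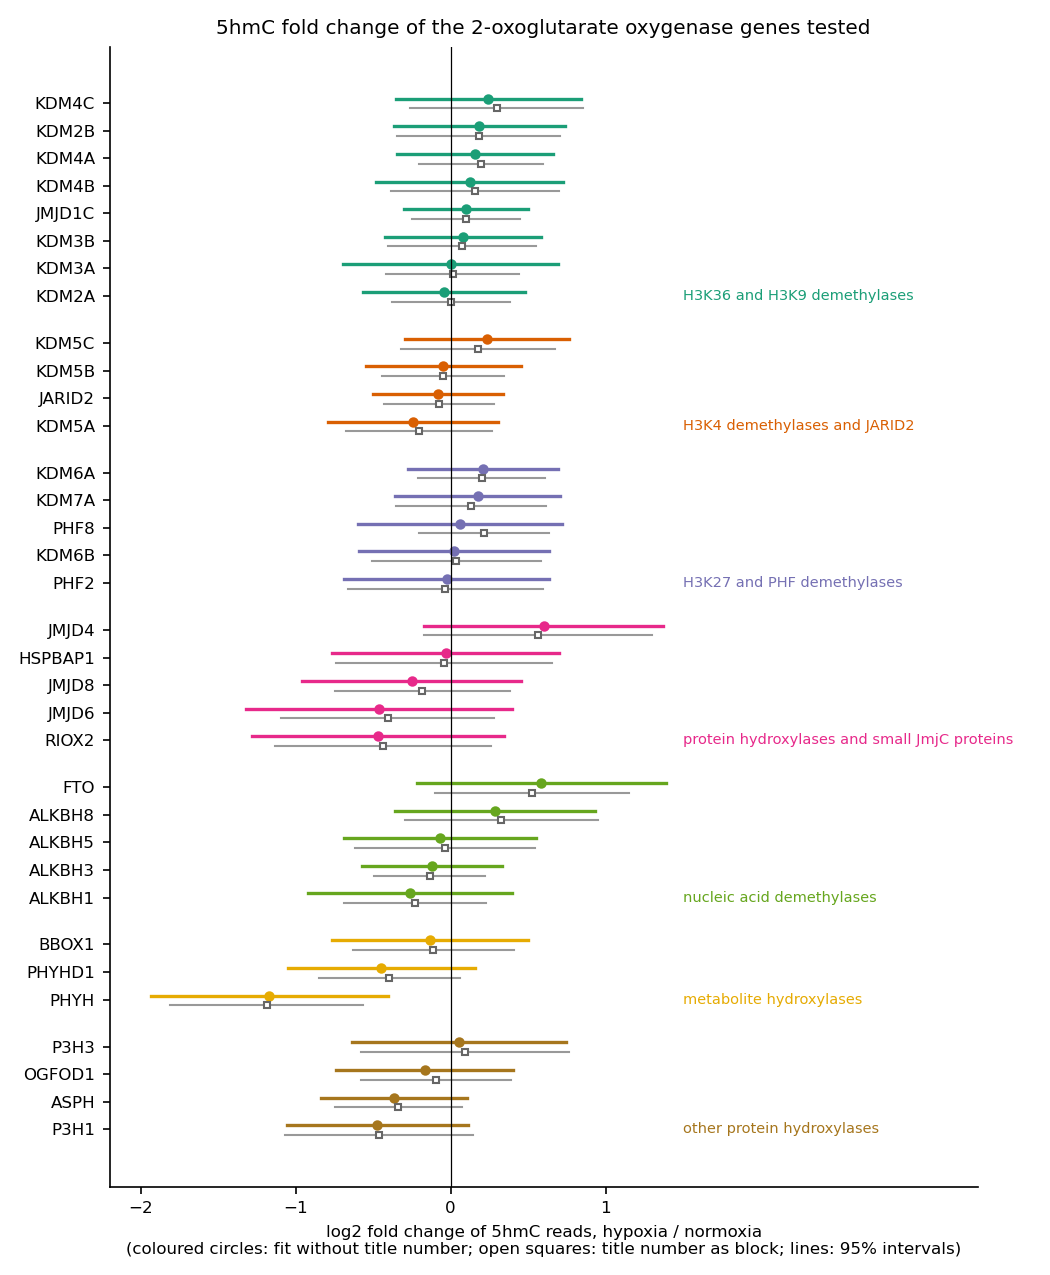
Log2 fold change of 5hmC reads, hypoxia over normoxia, for the 34 tested genes grouped by role, as circles without the block and open squares with the title number as a block, each with its 95% interval from edgeR. PHYH has the only circle whose interval (-1.93 to -0.40) does not reach 0, and 27 of the intervals without the block lie between -1 and 1.

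Of the 4 metabolite hydroxylases, PHYH and PHYHD1 had a lower mean CPM in hypoxia with or without the normoxia library numbered 21, BBOX1 and TMLHE only with it, and none passed the adjusted test. PHYH, the peroxisomal phytanoyl-CoA hydroxylase that starts the alpha-oxidation of branched fatty acids, had 10.98, 19.2 and 44.9 CPM in hypoxia and 19.0, 54.2 and 85.4 CPM in normoxia (lowest, median and highest of 6). The groups overlapped, with the hypoxia library numbered 33 above 2 of the normoxia libraries and the normoxia library numbered 110 among the hypoxia values. By number, hypoxia was lower in 5 of 6 pairs, and the exception was number 110, with 19.8 CPM in hypoxia and 19.0 CPM in normoxia. The widest gap was at number 21, with 10.98 CPM in hypoxia and 72.4 CPM in normoxia. Over the groups, PHYH averaged 22.5 ± 11.99 CPM in hypoxia and 53.4 ± 24.6 CPM in normoxia (SD, n = 6 each), from 62 reads in hypoxia and 130 in normoxia.

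The log2 fold change of PHYH was -1.17 ± 0.37 (SE; edgeR unadjusted p = 0.00449, adjusted p = 1.00), and with the block it was -1.19 ± 0.31 (unadjusted p = 0.000489, adjusted p = 0.232). Leaving out any 1 library kept it between -1.50 and -0.96. File names place numbers 110, 16, 21 and 33 on 1 flow cell lane and 49 and 4 on another, and within the lanes the value was -1.04 (edgeR unadjusted p = 0.0526) and -1.34 (edgeR unadjusted p = 0.0208). PHYH overlaps no other gene in RefSeq's Sscrofa11.1 table. Its tested neighbour SEPHS1, a selenophosphate synthetase gene, had 162 ± 22.0 CPM in hypoxia and 197 ± 62.6 CPM in normoxia, a log2 fold change of -0.29 ± 0.22 (SE).

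PHYHD1, a relative of PHYH, averaged 66.2 ± 17.0 CPM in hypoxia and 88.6 ± 36.2 CPM in normoxia and was lower in hypoxia in 5 of 6 pairs, with a log2 fold change of -0.45 ± 0.29 (SE; edgeR unadjusted p = 0.138). Without the normoxia library numbered 21, where PHYHD1 had its lowest value of 24.1 CPM, the change was -0.61 ± 0.23 (edgeR unadjusted p = 0.0170, adjusted p = 0.783). BBOX1, which completes carnitine synthesis, averaged 53.8 ± 18.8 CPM in hypoxia and 60.8 ± 28.2 CPM in normoxia (SD, n = 6 each), was lower in hypoxia in 3 of 6 pairs and had a log2 fold change of -0.13 ± 0.31 (SE). Without the normoxia library numbered 21 the normoxia mean of BBOX1 was 50.8 CPM and the log2 fold change 0.08 ± 0.28 (SE). TMLHE, which starts that synthesis, was too shallow to test, with 50 reads in hypoxia and 64 in normoxia, and its highest value, 101 CPM, was in the normoxia library numbered 21. TMLHE averaged 19.7 CPM in hypoxia, against 32.2 CPM in normoxia with that library and 18.3 CPM without it.

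The H3K36 and H3K9 demethylases, which remove methyl marks of active gene bodies and of heterochromatin, had no called gene. Of 8 tested genes, 6 had a log2 fold change above 0 and 2 below, with a median of 0.11, and all 8 intervals lay between -1 and 1. KDM4C, an H3K9 and H3K36 demethylase, had 24.7, 36.7 and 47.8 CPM in hypoxia and 22.0, 26.6 and 52.1 CPM in normoxia (lowest, median and highest of 6). Hypoxia was higher in 5 of 6 pairs, and the highest library of all was the normoxia library numbered 49. The log2 fold change of KDM4C was 0.24 ± 0.29 (SE; edgeR unadjusted p = 0.404), 0.48 without that library and 0.16 without the hypoxia library numbered 49. KDM2B, which brings a Polycomb complex to unmethylated CpG islands, had 0.19 ± 0.27, KDM4A 0.16 ± 0.24, KDM4B 0.12 ± 0.29, JMJD1C 0.10 ± 0.19, KDM3B 0.08 ± 0.24 and KDM2A -0.04 ± 0.25 (log2 fold change ± SE). HR, the hairless demethylase, was not tested, with 43 reads in hypoxia and 49 in normoxia.

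KDM3A, the H3K9 demethylase induced by hypoxia in other cells, had 43.3, 59.9 and 148 CPM in hypoxia and 44.4, 60.6 and 142 CPM in normoxia (lowest, median and highest of 6). The ranges were nearly the same, and both groups held 2 high libraries, numbered 110 and 49. The means were 80.6 ± 45.1 CPM in hypoxia and 80.1 ± 42.5 CPM in normoxia (SD, n = 6 each), a difference of log2 0.00 with an interval of -0.69 to 0.69. With the block the log2 fold change was 0.01 ± 0.21 (SE), with an interval of -0.41 to 0.44.

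Among the H3K4 demethylases, which act on a mark of active promoters, KDM5A had 39.0, 65.5 and 72.6 CPM in hypoxia and 49.6, 61.8 and 112 CPM in normoxia (lowest, median and highest of 6). Its groups overlapped and its log2 fold change was -0.24 ± 0.26 (SE; edgeR unadjusted p = 0.365), against -0.04 without the normoxia library numbered 49. KDM5B had -0.05 ± 0.24 and KDM5C 0.23 ± 0.26 (log2 fold change ± SE). JARID2, the catalytically inactive member that joins Polycomb repressive complex 2, had 826, 1000 and 1489 CPM in hypoxia and 771, 1097 and 1498 CPM in normoxia (lowest, median and highest of 6). With 2743 reads in hypoxia and 2802 in normoxia it was the deepest of the genes. Its log2 fold change was -0.08 ± 0.20 (SE; interval -0.50 to 0.34), lower in hypoxia in 5 of 6 pairs, and it was 0.04 without the normoxia library numbered 110.

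Of the 5 genes for H3K27 demethylases and the related PHF proteins, all were tested and 4 had a log2 fold change above 0, with a median of 0.06. KDM6A, an H3K27 demethylase of the COMPASS complexes, had 74.2, 88.9 and 147 CPM in hypoxia and 63.1, 90.6 and 104 CPM in normoxia (lowest, median and highest of 6). Hypoxia was higher in 4 of 6 pairs, and the log2 fold change was 0.21 ± 0.23 (SE; edgeR unadjusted p = 0.378), against 0.06 without the hypoxia library numbered 4. KDM7A had 0.17 ± 0.26, KDM6B 0.02 ± 0.30 and PHF2 -0.02 ± 0.32 (log2 fold change ± SE). PHF8, which acts on H3K9 and H4K20, had 151, 198 and 280 CPM in hypoxia and 92.2, 160 and 512 CPM in normoxia (lowest, median and highest of 6). The highest of each group was the library numbered 21. The log2 fold change of PHF8 was 0.06 ± 0.32 (SE; edgeR unadjusted p = 0.846), and without the normoxia library numbered 21 it was 0.53 ± 0.22 (edgeR unadjusted p = 0.0248, adjusted p = 0.783).

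The small JmjC proteins, most of which hydroxylate other proteins, had 1 tested gene above 0 and 4 below, with a median log2 fold change of -0.25. JMJD4, a hydroxylase of the translation release factor eRF1, had 12.7, 29.9 and 44.6 CPM in hypoxia and 9.34, 16.3 and 48.3 CPM in normoxia (lowest, median and highest of 6). Its highest library was the normoxia library numbered 21. Its log2 fold change was 0.60 ± 0.37 (SE; edgeR unadjusted p = 0.121), and without that library it was 0.87 ± 0.35 (edgeR unadjusted p = 0.0214, adjusted p = 0.783). HSPBAP1 had 11.7, 22.3 and 32.9 CPM in hypoxia and 10.8, 25.9 and 38.6 CPM in normoxia (lowest, median and highest of 6), and its log2 fold change was -0.03 ± 0.35 (SE). JMJD6, a lysyl hydroxylase of splicing factors with 0 reads in the normoxia library numbered 21, had -0.46 ± 0.41, JMJD8 -0.25 ± 0.34 and RIOX2, a hydroxylase of ribosomal proteins, -0.47 ± 0.39 (log2 fold change ± SE). RIOX1, the other ribosomal protein hydroxylase, was not in the main test, with 27 reads in hypoxia and 62 in normoxia and lower CPM in hypoxia in 5 of 6 pairs. In the edgeR fit without a count filter its log2 fold change was -1.17 ± 0.44 (SE; unadjusted p = 0.0120, adjusted p = 1.00). The span of RIOX1 overlaps that of HEATR4 in the RefSeq table, and how reads in shared stretches were counted is not known.

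FTO and the ALKBH genes are grouped here as nucleic acid demethylases. Several of them remove methyl groups from RNA bases or repair alkylated DNA, while ALKBH7 and ALKBH8 have other roles, given below. Of 5 tested genes in the group 2 lay above 0 and 3 below, with a median of -0.07. FTO, the demethylase of N6-methyladenosine in RNA, had 18.1, 40.9 and 71.3 CPM in hypoxia and 8.02, 30.5 and 48.3 CPM in normoxia (lowest, median and highest of 6). Hypoxia was higher in 5 of 6 pairs with overlapping groups, and the log2 fold change was 0.59 ± 0.39 (SE; edgeR unadjusted p = 0.145), with a low of 0.35 without the hypoxia library numbered 21. ALKBH5, the other demethylase of that mark, had 34.7 ± 10.0 CPM in hypoxia and 35.1 ± 13.1 CPM in normoxia (SD, n = 6 each), and its log2 fold change was -0.07 ± 0.30 (SE). ALKBH1, which acts on transfer RNA and DNA, had 52.0, 62.3 and 121 CPM in hypoxia and 44.4, 67.7 and 155 CPM in normoxia (lowest, median and highest of 6). Its log2 fold change was -0.26 ± 0.32 (SE; edgeR unadjusted p = 0.418), and 1 library moved it widely. It was -0.03 without the normoxia library numbered 33, -0.07 without the normoxia library numbered 21 and -0.47 without the hypoxia library numbered 33. The DNA repair enzyme ALKBH3 had -0.12 ± 0.22 and ALKBH8, which modifies wobble uridines of transfer RNA, 0.29 ± 0.31 (log2 fold change ± SE).

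The other 4 ALKBH genes were too shallow for the main test. ALKBH7, a mitochondrial protein linked to programmed necrosis, had 17 reads in all hypoxia libraries and 4 in all normoxia libraries. Its hypoxia reads were 3, 6, 2, 2, 1 and 3 and its normoxia reads 1, 2, 0, 0, 1 and 0, in the number order 110, 16, 21, 33, 49 and 4. Per CPM, hypoxia was higher in 6 of 6 pairs. In the fit without a count filter, where 2.74% of 25337 genes had an unadjusted p under 0.05, the log2 fold change of ALKBH7 was 1.92 ± 0.74 (SE; edgeR unadjusted p = 0.0142, adjusted p = 1.00). ALKBH2 had 23 reads in hypoxia and 29 in normoxia. ALKBH4 had 36 reads in hypoxia and 58 in normoxia. ALKBH6 had 33 reads in hypoxia and 24 in normoxia.

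Of the other protein hydroxylases, 4 of 7 were tested and 3 lay below 0. P3H1, the collagen prolyl 3-hydroxylase that works in a complex with CRTAP, had 20.0, 27.6 and 32.6 CPM in hypoxia and 24.1, 37.2 and 49.3 CPM in normoxia (lowest, median and highest of 6). Hypoxia was lower in 4 of 6 pairs, and the log2 fold change was -0.47 ± 0.28 (SE; edgeR unadjusted p = 0.106). ASPH, which hydroxylates EGF-like domains, averaged 98.1 ± 13.5 CPM in hypoxia and 128 ± 37.4 CPM in normoxia (SD, n = 6 each), with a log2 fold change of -0.36 ± 0.23 (SE; edgeR unadjusted p = 0.125). OGFOD1, a hydroxylase of a ribosomal protein, had -0.17 ± 0.28 and P3H3 0.05 ± 0.33 (log2 fold change ± SE). The others were not tested: P3H2 had 61 reads in hypoxia and 51 in normoxia, OGFOD2 had 28 in hypoxia and 41 in normoxia, and OGFOD3 had 7 in hypoxia and 11 in normoxia.

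**Figure D2:**
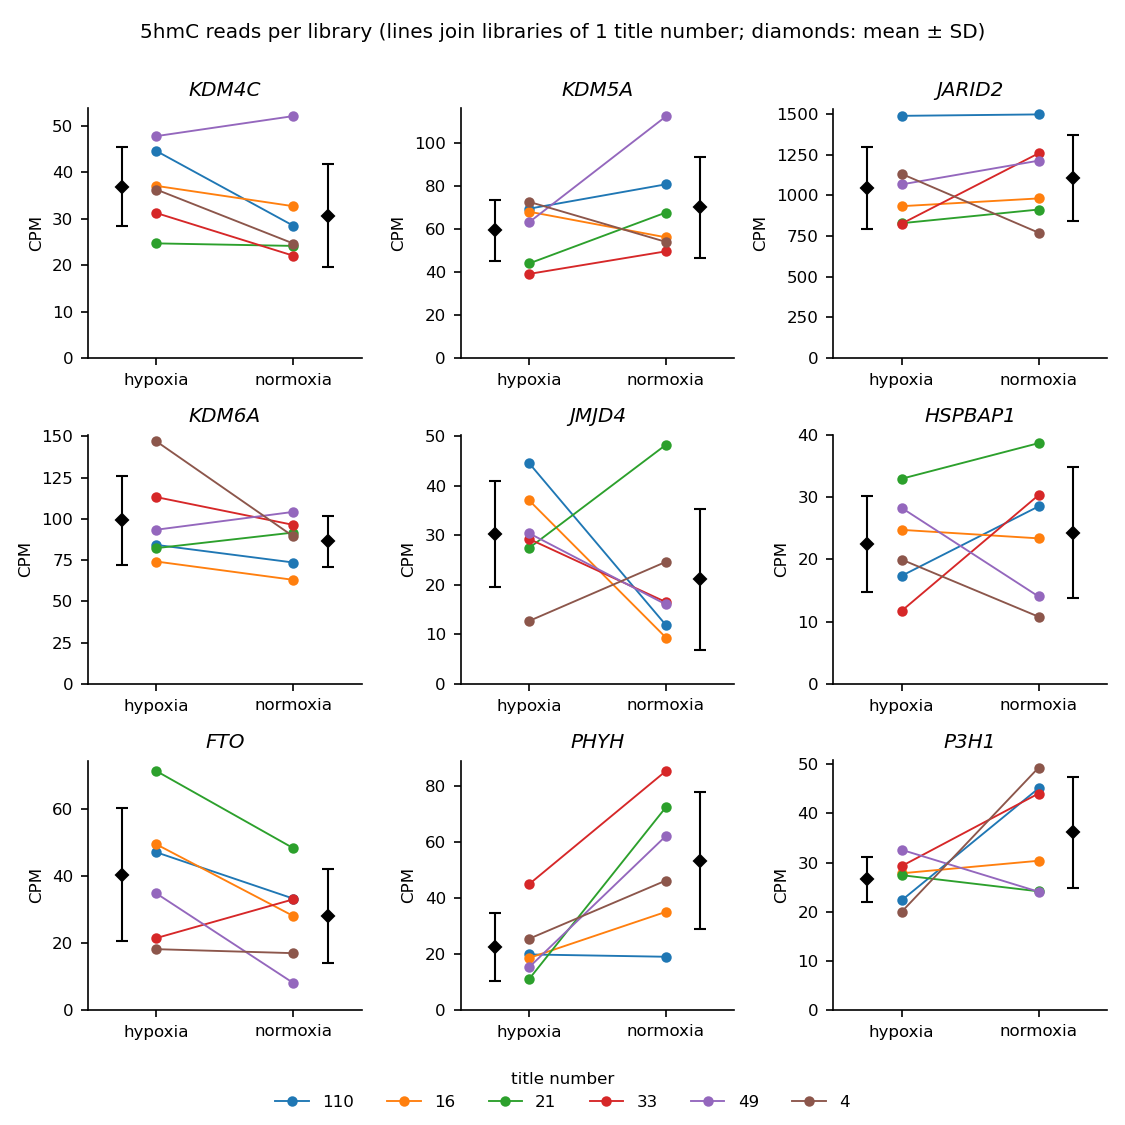
CPM in each library for 9 of the named genes, hypoxia left of normoxia, with lines joining the libraries of 1 title number and diamonds at the mean ± SD of 6 libraries. The groups overlap in every gene, and PHYH is lower in hypoxia at 5 of 6 numbers.

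The overlaps of gene spans may bear on how far a row is 1 gene's own signal. Which parts of a span were counted, and how shared reads were counted, is not known. Of the 44 genes, 15 overlap another gene in the RefSeq table and 11 overlap a protein-coding one, among them KDM2B with RNF34, JMJD1C with REEP3, JMJD8 with STUB1, ALKBH3 with ACCSL and ASPH with CLVS1. PHYH, KDM3A, KDM4C, PHF8, FTO, ALKBH1, JMJD4 and P3H1 overlap none.

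The genes on the other side of the same chemistry were read alongside. Of 23 histone methyltransferase genes, 20 were tested, 10 lay above and 10 below 0, with a median log2 fold change of -0.01 and none called in either fit. The lowest p was that of DOT1L, the H3K79 methyltransferase, which had 30.8 ± 11.9 CPM in hypoxia and 57.1 ± 31.3 CPM in normoxia (SD, n = 6 each). Its log2 fold change was -0.92 ± 0.35 (SE; edgeR unadjusted p = 0.0159, adjusted p = 1.00). Of 13 writers and readers of N6-methyladenosine found, 10 were tested, 4 above and 6 below 0, with a median of -0.09 and none called. Of 13 partners of the metabolite hydroxylases in phytanate oxidation and in carnitine synthesis and use, 6 were tested, 2 above and 4 below 0, with a median of -0.29 and none called. ACOX2, a peroxisomal oxidase of branched-chain acyl-CoA, had 55.3 ± 9.34 CPM in hypoxia and 81.1 ± 10.1 CPM in normoxia (SD, n = 6 each), with a log2 fold change of -0.54 ± 0.22 (SE; edgeR unadjusted p = 0.0253, adjusted p = 1.00).

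Within each number the genes did not move one way. The median log2 difference, hypoxia minus normoxia, of the 34 genes was 0.16 at number 110, 0.06 at 16, 0.04 at 21, -0.22 at 33, -0.08 at 49 and -0.10 at 4. Of the 34, between 15 and 20 genes per number were higher in hypoxia. The median absolute difference was widest at number 21, at log2 0.78 for the 34 and 0.56 for all genes, and at the other numbers it was 0.31 to 0.47 for the 34 and 0.31 to 0.41 for all genes. The normoxia library numbered 21, the shallowest, was the highest of its group for 12 of the 34 genes and the lowest for 9.

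**Figure D3:**
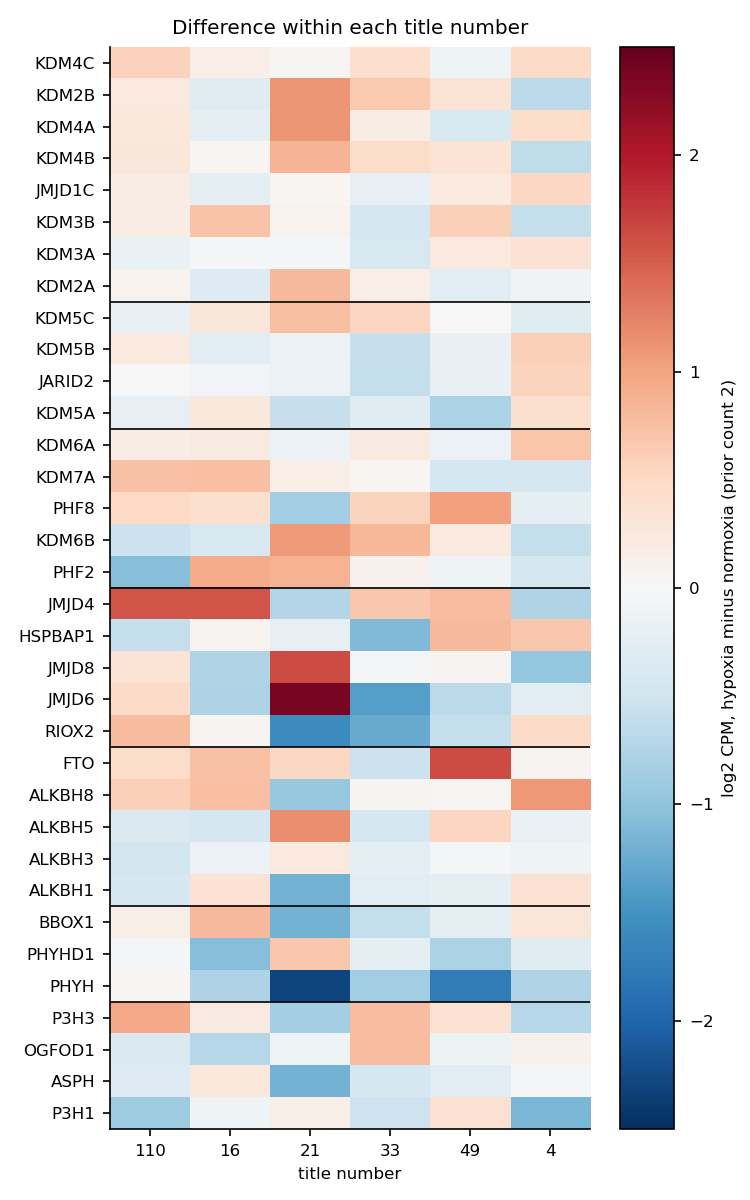
Heat map of the log2 CPM difference, hypoxia minus normoxia (prior count 2), of the 34 tested genes by title number, red for higher and blue for lower in hypoxia, with lines between role groups. Both colours occur at every number and the deepest colours lie at number 21, where the median absolute difference was 0.78.

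The second comparison asked whether these genes differed between title numbers, over both treatments. Of the 34 genes, 3 (8.82%) passed an adjusted p of 0.05, where 12.8% of all tested genes did. The strongest was KDM3A (edgeR F = 8.72, adjusted p = 0.00161). At number 110 KDM3A had 126 CPM in hypoxia and 142 CPM in normoxia, and at number 49 148 CPM in hypoxia and 124 CPM in normoxia. At the other 4 numbers it had 43.3 to 69.0 CPM in hypoxia and 44.4 to 68.8 CPM in normoxia, so the 4 libraries of numbers 110 and 49 stood above the other 8. Numbers 110 and 49 lie on different lanes. KDM3A passed under every alternative run, with adjusted p from 5.27e-05 to 0.0178. Its tested neighbour REEP1 did not differ by number at that threshold (edgeR adjusted p = 0.835).

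PHF8 differed between numbers at an edgeR adjusted p of 0.0191, with number 21 the highest, at 280 CPM in hypoxia and 512 CPM in normoxia, and the other numbers at 151 to 232 CPM in hypoxia and 92.2 to 176 CPM in normoxia. Without both libraries of number 21 the adjusted p was 0.588, so the call rests on that number. ALKBH1 differed at an edgeR adjusted p of 0.0472, with numbers 21 and 33 high in normoxia, at 155 and 146 CPM, and number 33 high in hypoxia, at 121 CPM. The call for ALKBH1 lies at the threshold and was lost without number 33 (adjusted p = 0.377) and with gene reads as the only scaling (adjusted p = 0.0558), among others.

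Of the 16 marker genes tested, 3 also differed between numbers, ACTA2, PDGFRA and VWF. ACTA2, a smooth muscle actin gene, differed at an edgeR adjusted p of 9.34e-07, with 86.5 to 107 CPM in hypoxia and 171 to 193 CPM in normoxia at numbers 110, 16 and 49. At numbers 21, 33 and 4 ACTA2 had 13.7 to 21.9 CPM in hypoxia and 24.1 to 29.3 CPM in normoxia. Numbers 110 and 49, the high ones for KDM3A, were also high for ACTA2, while at number 16 ACTA2 was high and KDM3A was not. PDGFRA, a stromal marker, differed at an edgeR adjusted p of 3.25e-05 and was highest at number 33, with 297 CPM in hypoxia and 570 CPM in normoxia. VWF, an endothelial marker, differed at an edgeR adjusted p of 0.0414, with 49.6 to 115 CPM in hypoxia and 35.6 to 126 CPM in normoxia. Whether cell makeup plays a part in the differences of KDM3A, PHF8 and ALKBH1 between numbers was not tested.

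**Figure D4:**
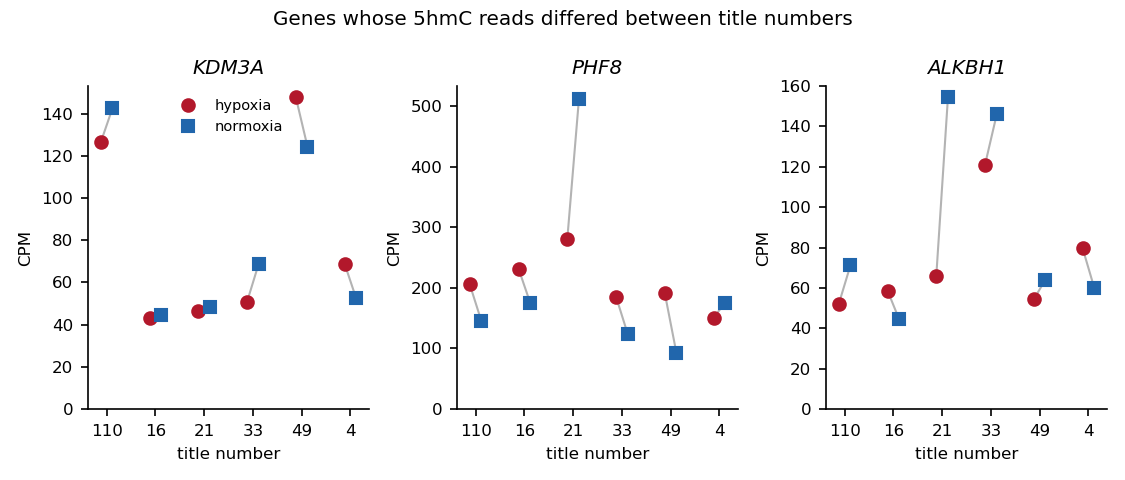
CPM of KDM3A, PHF8 and ALKBH1 in the hypoxia and normoxia library of each title number. KDM3A is high in both libraries of numbers 110 and 49, while PHF8 reaches 512 in the normoxia library numbered 21.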

How the data were processed

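DNA from pig adipose-derived mesenchymal stem cells was enriched for 5hmC with an antibody and sequenced, per the labels' protocols. The authors deposited raw HTSeq counts per gene symbol, 1 table per library, with no normalization. Tools named in the submitters' processing notes are edgeR, HTSeq, Picard, MACS2 and Bowtie2, with no version. Genome build, annotation, feature type and strand setting: not given in the sources used here. Peak lists and 1 input sample were not used here. Rows naming no gene stayed out of library sizes: 88.0 to 93.0% of reads were outside any feature, 4.12 to 10.3% had low alignment quality, and a row with a blank name held 0. Every one of 66 library pairs differed by more than sampling noise (lowest chi-square over degrees of freedom 1.34).

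Genes were tested here with edgeR 4.0.16 in R 4.3.3: filterByExpr (minimum count 10, total 15), TMM scaling, quasi-likelihood F test, Benjamini-Hochberg adjustment over 11868 genes, threshold 0.05. CPM and log2 fold changes were computed from those counts, and the SE is the fold change on that scale divided by the square root of F. DESeq2 1.42.0 was an alternative. Groups came from the treatment label. The members and lists were chosen with earlier results of these data known. The rule for named genes took those at an unadjusted p under 0.05 in either fit, the smallest p of each role group, the highest and lowest mean CPM and the 3 smallest p between numbers; DOT1L, ACOX2, PHYHD1, ASPH, RIOX1, ALKBH7, the other members' single values and the neighbours were added after their values were seen.

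The title numbers gave the pairing. With group means removed, the 2 libraries of each number had a correlation across genes of 0.136 to 0.478 (mean 0.362), all above the threshold of 0.1, so the number served as a block in the paired fit. The biological coefficient of variation was 0.305 without the block and 0.21 with it. The labels do not say that libraries come from separate animals, so the p-values reflect only the spread among these libraries, possibly technical. The fit was also run on simulated counts, whose outcome is not reported here and bears on no result above. They took their spread from the fit with the block and gave 200 genes a difference between numbers. In the data, 1520 of 11868 genes were called between numbers. Names and neighbours came from the RefSeq table of Sscrofa11.1, which matched 26838 of 27339 symbols.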

Additional observations from a re-analysis of the deposited data

Results flagged for a closer look

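In 24 groups of 6 libraries (12 named genes in 2 conditions), 2 libraries stood apart from the rest of their group, where chance flags about 1 group in 20. PHF8 had 512 CPM in the normoxia library numbered 21, and the nearest normoxia library had 176 CPM, a gap of 0.801 of the group's range. KDM4C had 52.1 CPM in the normoxia library numbered 49, and the nearest normoxia library had 32.7 CPM, a gap of 0.646 of the range.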

How the results depend on the processing

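No gene of the set passed the adjusted threshold for hypoxia against normoxia under any alternative run. Genes called in all numbered 4 with the title number as a block, and 0 without it; leaving out 1 library gave 0, and the paired fit without 1 number 0 to 12. The block changed no other call: PHYH had an adjusted p of 0.232 in it. Members at an unadjusted p under 0.05 were 3 of 44 with DESeq2 (2.02% of all genes), 3 of 44 with no count filter (2.74%), 0 of 32 in lane 7 alone (1.71%) and 2 of 37 in lane 8 alone (1.56%). With libraries left out they were 1 to 4, as the share of all genes ran from 1.37 to 10.7%; the 4 of 34 came without normoxia 21 (6.06%) and in the paired fit without number 21 (10.1%). The members' median log2 fold change ran from -0.06 to 0.06 with libraries or numbers left out. Between numbers, genes called were 2303 with no count filter and 834 in lane 7 alone, and 884 to 1935 with a number left out; members called were 2 to 4.

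Signs turned for 5 named members, and the cause was not tested. KDM3A, whose main value was -0.00026, was 0.013 with the block, 0.00019 with RLE scaling, 0.049 with gene reads as the only scaling, 0.0080 with no filter and 0.33 in lane 8. It was -0.26 to 0.25 with 1 library left out, and in the paired fit 0.085 without number 110, 0.060 without 16, 0.033 without 21 and 0.093 without 33. HSPBAP1 was 0.021 with gene reads only, 0.99 in lane 8 and -0.21 to 0.11 with 1 library left out, and in the paired fit 0.12 without number 110, 0.0079 without 21 and 0.20 without 33. PHF8 was -0.011 in lane 7 and -0.087 to 0.53 with 1 library left out. JARID2 was 0.19 in lane 8, -0.20 to 0.040 with 1 library left out and 0.029 in the paired fit without number 33. ALKBH1 was 0.16 in lane 8 and -0.47 to -0.026 with 1 library left out. FTO fell under the count filter in lane 8 and has no value there. The other named values kept their direction. Few reads per gene limit all single values.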
